A study of Mus musculus with 18 samples.

Results

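The 44 genes described here encode the machinery of DNA replication and mitosis in the mouse. They were taken by name from the 34921 genes listed for this study, and all 44 names were found. The tissue was brain punched from the focus of a photothrombotic stroke or from control sites. The gene set holds 10 genes of origin licensing and the replication fork (Mcm2 to Mcm7, Cdc6, Cdt1, Cdc45 and Pcna), 4 of nucleotide supply (Rrm1, Rrm2, Tk1 and Tyms), and 7 cyclins and their kinase (Ccnd1, Ccne1, Ccne2, Ccna2, Ccnb1, Ccnb2 and Cdk1). It further holds 2 transcription factors (E2f1 and Foxm1), 5 mitotic kinases and checkpoint genes, 11 spindle and kinetochore genes, and the proliferation markers Mki67 and Top2a. A last block of 3 genes, Cdc20, Ube2c and Cdca3, was listed under mitotic exit, although Cdca3 promotes mitotic entry.

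The mice were male C57BL/6 animals of 9 weeks. Stroke was made by intraperitoneal rose bengal at 100 mg/kg, a dye that closes vessels when lit, followed 5 min later by 15 min of 532 nm laser light (40 mW, a fiber of 2 mm) centered 2 mm to the right of bregma. Right-sided focal tissue was punched at 4 h, 1 day, 3 days and 10 days, guided by T2-weighted magnetic resonance images, from 3 mice at each time. The control is the matching right-sided region of 3 sham mice, called sham right. The labels give 1 treatment text for every sample, so whether sham mice received dye or light is not clear from it. A further group of 3 left-sided punches, contralateral left, comes from mice with stroke according to the protocol, while its sample labels call it sham and give no time. A punch samples a small block of mixed tissue, so the values are means over all of its cells.

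Dividing cells make these transcripts in order. In the G1 phase, Cdc6 and Cdt1 load the Mcm2 to Mcm7 helicase onto origins, and E2F factors, released by cyclin D and cyclin E kinases, turn on the genes of replication. During S phase Cdc45 activates the helicase, the clamp Pcna holds the polymerases, and ribonucleotide reductase, thymidine kinase and thymidylate synthase supply nucleotides. Cyclin A, cyclin B and Cdk1 then drive mitosis with the factor Foxm1, and the anaphase-promoting complex, with Cdc20 and Ube2c, ends it. Mature neurons do not divide, whereas microglia, astrocytes, oligodendrocyte precursors, endothelium, pericytes and invading leukocytes can divide after injury.

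Levels are given in FPKM, fragment counts scaled by transcript length and by library size, so genes can be compared per length. Each value after ± is the SD of 3 libraries for a level and the standard error for a difference. Differences are on the scale of log2(FPKM + 1), on which the change of a low gene appears smaller than it is. The adjusted p is that of limma, corrected by Benjamini-Hochberg over all genes tested, and a gene is called below 0.05. Libraries are named by group and by their number in the labels.

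Between 12118 and 13632 genes reached 1 FPKM in a library. Low values put 1 fragment per kilobase at about 0.0335 to 0.0804 FPKM, so levels of members near 0.1 FPKM rest on few fragments. This step is a rough estimate, since only 28.2% to 34.5% of low values lay within 0.1 of a whole multiple of it. Library 5 of the 10-day group stood apart, with 44.6% of FPKM from mitochondrially encoded genes against 24.4% to 39.0% in the others, and its 1-fragment step was the largest of all. Library 5 of each of the 10-day and contralateral left groups also had the lowest mean correlation with its own group over genes, 0.933 and 0.941, against 0.959 to 0.988 in the others. The calls against sham right at 10 days and the share of the 3-day excess left then are therefore given with and without library 5. Most other results at 10 days include it. Neuronal markers (Snap25, Syt1, Slc17a7, Rbfox3 and Gad1) were above 0 in every library. The summed choroid plexus markers ranged from 0.827 to 629 FPKM between libraries, and from 0.860 to 221 within the 3-day group. All comparisons with sham right share the same 3 control libraries.

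Promoters of genes used in S phase and in mitosis are known to differ in their control elements. RefSeq promoters (build GRCm38.p6), 250 bases before to 50 bases after the start, were matched by symbol for 36 of the 44 genes. Those of Aurkb, Ccna2, Ccnd1, Ccne2, Foxm1, Kif20a, Mcm4 and Tpx2 are not shown here. Both strands were searched for the cell cycle homology region (CHR, TTTGAA or TTCGAA), the NF-Y box (CCAAT) and the E2F motif (TTTCCCGC, TTTGGCGC, TTTCGCGC or TTTGCCGC). The CHR letters occurred in 17 of 21 promoters of mitosis genes (80.95%), in 3 of 13 of replication and nucleotide genes (23.08%) and in 21.66% of 27025 promoters in the table. The E2F letters occurred in 6 of those 13 (46.15%), in 1 of the 21, that of Cdk1, and in 2.605% of all. CCAAT occurred in 18 of the 21, in 9 of the 13 and in 41.06% of all promoters, and CHR together with CCAAT in 16 of the 21 and in 8.614% of all. The promoters of Ccne1 and E2f1 held none of these letters. A match is a string of letters and not a measured binding site.

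Promoter stretches of a replication gene, Mcm6, and of 2 mitosis genes, Cdk1 and Ube2c, are given because these genes show how the motif classes are laid out. Each runs 5′ to 3′ along the gene from 200 to 10 bases before the RefSeq start, and capitals mark the motifs. The GENCODE positions given below place gene starts elsewhere, and the last bases of the Cdk1 and Ube2c stretches lie inside those gene spans. They lie at chr1:128359715-128359905, minus strand, at chr10:69352922-69353112, minus strand, and at chr2:164769729-164769919, plus strand. In that of Mcm6 the capitals are 3 E2F motifs, of which 2 overlap on opposite strands, and 2 CCAAT boxes read on the other strand as ATTGG. That of Cdk1 holds 1 E2F motif, 2 CCAAT boxes and 2 CHR elements, and that of Ube2c holds 5 CCAAT boxes, of which 2 overlap, and 1 CHR element on the other strand.
Mcm6: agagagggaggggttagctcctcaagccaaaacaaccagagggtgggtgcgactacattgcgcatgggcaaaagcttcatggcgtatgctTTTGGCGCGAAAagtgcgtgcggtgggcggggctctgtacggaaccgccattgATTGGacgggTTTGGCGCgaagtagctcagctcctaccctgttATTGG
Cdk1: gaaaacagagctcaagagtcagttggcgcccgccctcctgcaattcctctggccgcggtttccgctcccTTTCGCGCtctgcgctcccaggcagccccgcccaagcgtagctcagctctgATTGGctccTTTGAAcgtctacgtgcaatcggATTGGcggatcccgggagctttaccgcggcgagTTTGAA
Ube2c: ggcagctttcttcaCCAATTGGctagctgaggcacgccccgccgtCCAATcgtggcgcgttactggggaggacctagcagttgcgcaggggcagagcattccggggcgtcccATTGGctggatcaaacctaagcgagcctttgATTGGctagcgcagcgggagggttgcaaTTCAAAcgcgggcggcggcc

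The genes of replication and mitosis were low in control punches, and most of them rose at 3 days. At 3 days all 3 stroke libraries lay above all 3 sham right libraries for 43 of the 44 genes, against 27.2% of all genes tested, and Ccne2 was the exception. Fitted over all 34921 genes without a filter on low values, 40 of 44 were called higher and 0 lower, where 3.08% of all genes were called higher and 0.137% lower. The median difference of the 44 was 1.16 on the log2(FPKM + 1) scale, and that of all genes tested was 0.08. In bulk RNA, more cells in cycle and more of these transcripts per cell cannot be told apart. With the filter (1 FPKM in at least 3 libraries) 37 genes were tested and 34 were called higher, against 6.91% of all. However, 20 of these 37 reached the filter only through the 3-day libraries and so were selected by their high 3-day values. Of the 17 that passed without those libraries, 14 were called higher. Of the 34 calls, 30 held in each of 20 alternative settings in which the gene was tested, and those of Cdt1, E2f1, Mcm4 and Mcm2 did not.

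**Figure D1:**
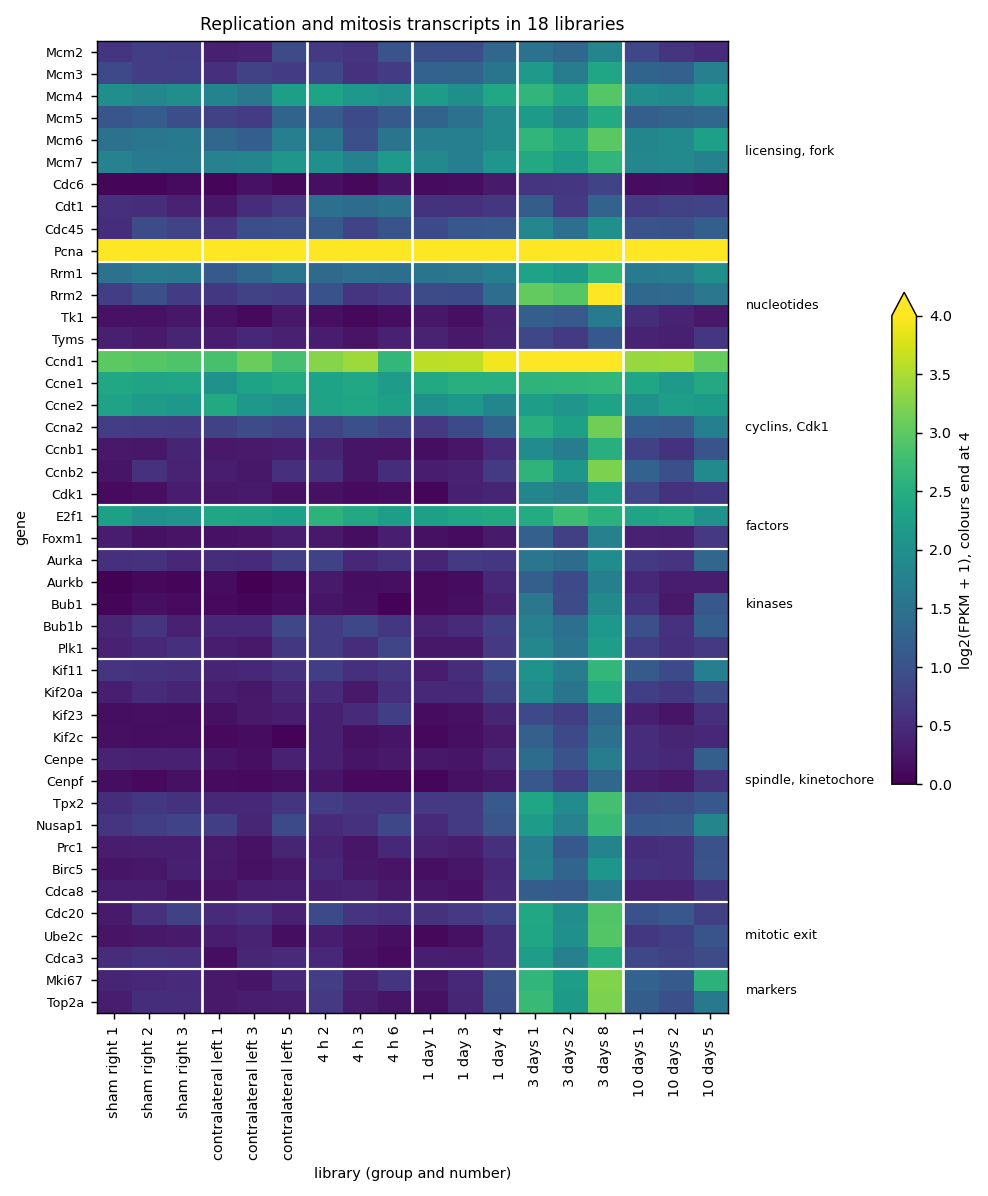
Levels of the 44 genes (rows, by role) in the 18 libraries (columns, by group), as log2(FPKM + 1), with the colours ending at 4. The 3-day columns are brightest for nearly all rows, library 8 most of all, while Pcna, Ccne1 and Ccne2 are bright or even across all columns.

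The licensing and fork genes were called higher at 3 days in 9 of 10 cases without a filter, with a median ratio of means of 3.01, where the 11 spindle and kinetochore genes had one of 8.59. Mcm6 (chr1:128331590-128359664, minus strand in GENCODE M21 on GRCm38) encodes a helicase subunit. It measured 1.83, 1.96 and 2.06 FPKM in sham right, 1.49, 1.29 and 2.28 in contralateral left, 1.92, 0.971 and 1.92 at 4 h and 2.28, 2.31 and 2.73 at 1 day. At 3 days it measured 5.20, 4.35 and 6.90, and at 10 days 2.56, 2.72 and 3.8. Its 3-day libraries lie above every other library, and the groups at 4 h and in contralateral left overlap sham right. The difference at 3 days was 1.12 ± 0.18 (adjusted p 0.000710).

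The other helicase subunits were all called higher, with the smallest ratios for Mcm4 and Mcm7, the subunits with the highest levels in sham right. Mcm3 measured 3.29 ± 0.982 FPKM at 3 days against 0.727 ± 0.109 (difference 1.29 ± 0.17, adjusted p 8.49e-05). Mcm5 measured 3.55 ± 0.912 against 1.09 ± 0.145 (difference 1.1 ± 0.18, adjusted p 0.000685). Mcm7, with 4.38 ± 0.817 against 2.21 ± 0.164 FPKM, had a ratio of means of 1.98. Mcm2 measured 1.97 ± 0.505 against 0.615 ± 0.0742 (adjusted p 0.00385), a call that ended with the replicate number as a block (adjusted p 0.0594). Mcm4 measured 5.32 ± 1.32 against 2.84 ± 0.215 (adjusted p 0.0174). The Mcm4 call ended without sham right 2 or 3 (adjusted p 0.0832 and 0.0522), without 3-day library 1 or 8 (0.0606 and 0.126) and with the block (0.0764).

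Among the loaders and fork factors, Cdc6 and Cdc45 rose at 3 days and Pcna did not pass the test. Cdc6, the origin loader, was near the detection floor in sham right at 0.0390, 0.0414 and 0.0895 FPKM and measured 0.535, 0.548 and 0.773 at 3 days. It did not reach the filter; without a filter the difference was 0.61 ± 0.07 (adjusted p 8.80e-05). Cdc45, which activates the helicase, measured 2.46 ± 0.634 against 0.703 ± 0.243 FPKM (difference 1.02 ± 0.16, adjusted p 0.000387). Pcna, the sliding clamp that also serves in DNA repair, was by far the most abundant of the 44, at 29.6, 29.2 and 33.0 FPKM in sham right. It measured 33.8, 36.1 and 23.5 in contralateral left, 28.5, 26.9 and 19.4 at 4 h, 30.3, 36.2 and 28.6 at 1 day, 40.9, 37.6 and 45.7 at 3 days and 33.4, 36.1 and 43.2 at 10 days. The 3-day Pcna libraries do not overlap sham right, yet the difference of 0.42 ± 0.17 had an adjusted p of 0.220.

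Cdt1 was the single gene of the 37 tested that was called against sham right at 4 h. This gene encodes the licensing factor that is destroyed once S phase begins. It measured 0.461, 0.442 and 0.309 FPKM in sham right and 0.192, 0.438 and 0.580 in contralateral left, and 1.75, 1.66 and 1.86 at 4 h. It then measured 0.494, 0.499 and 0.556 at 1 day, 1.27, 0.580 and 1.42 at 3 days and 0.641, 0.717 and 0.764 at 10 days. The 4-h libraries lie above all others, the 1-day libraries are back near sham right, and the 3-day libraries split, with library 2 near sham right. The difference at 4 h was 0.97 ± 0.14 (adjusted p 0.00213), and the fall from 4 h to 1 day was -0.86 ± 0.14 (adjusted p 0.00617), the single call among the 37 genes in that step, where 0.378% of all genes were called lower and 0.849% higher. With the replicate number as a block, the adjusted p of that fall was 0.194. At 3 days the difference of 0.55 ± 0.14 was called (adjusted p 0.0263), but the call ended when any 1 of sham right 1, 2 or 3 or 3-day library 1 or 8 was left out (adjusted p 0.0576 to 0.165). It also ended with quantile normalization (adjusted p 0.346), median centring (0.076), the block (0.291), the 2 groups alone (0.0808) and a pseudocount of 0.01 (0.0513), and without a filter at a pseudocount of 0.1 (0.0562).

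Nucleotide supply rose at 3 days, with 4 of 4 genes called without a filter. Rrm2 had the largest difference of the 44 genes on the log2(FPKM + 1) scale, though not the largest ratio of means. This gene (chr12:24708241-24714146, plus strand) encodes the subunit of ribonucleotide reductase that is made in S phase. Rrm2 measured 0.658, 0.959 and 0.633 FPKM in sham right, 0.570, 0.708 and 0.655 in contralateral left, 1.02, 0.540 and 0.618 at 4 h and 0.900, 0.860 and 1.70 at 1 day. At 3 days it measured 7.26, 6.71 and 15.9, and at 10 days 1.51, 1.58 and 2.00. The lowest 3-day library is above every other library outside that group, and the 10-day libraries are above sham right without reaching a call. The 3-day difference was 2.56 ± 0.23 (adjusted p 2.74e-06), a ratio of means of 13.3.

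The salvage enzyme gene Tk1 measured 1.3, 1.17 and 2.09 FPKM at 3 days against 0.142, 0.143 and 0.190 in sham right (difference 1.1 ± 0.13, adjusted p 3.53e-05). Rrm1, the large reductase subunit that is also made outside S phase, measured 4.28 ± 0.962 against 1.99 ± 0.149 (difference 0.81 ± 0.14, adjusted p 0.00103). Tyms, thymidylate synthase, measured 0.856 ± 0.276 against 0.277 ± 0.0599 and was below the filter. Without a filter its difference was 0.53 ± 0.11 (adjusted p 0.00966).

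Of the 7 cyclin and kinase genes, 5 were called higher at 3 days, and the 2 cyclin E genes were not. No test of a difference between cyclins was run. Ccnd1, cyclin D1, which links growth signals to the cell cycle, measured 6.94, 6.72 and 6.44 FPKM in sham right, 6.10, 7.45 and 6.04 in contralateral left and 8.63, 9.61 and 5.25 at 4 h. It measured 11.1, 11.3 and 14.3 at 1 day, 26.1, 21.2 and 31.1 at 3 days and 9.46, 9.54 and 7.31 at 10 days. Every 1-day library is above every sham right library and below every 3-day library. Its difference of 0.77 ± 0.19 at 1 day missed the threshold (adjusted p 0.0592). At 3 days the difference was 1.80 ± 0.19 (adjusted p 7.62e-06).

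Cyclin E starts S phase with Cdk2, and neither of its genes passed the test. Ccne1 measured 5.06, 5.13 and 5.29 FPKM at 3 days against 4.2, 4.06 and 4.09 in sham right, groups that do not overlap, with a difference of 0.27 ± 0.11 (adjusted p 0.232). Ccne2 measured 3.66, 3.25 and 3.97 against 3.96, 3.56 and 3.36, with overlapping groups and a difference of -0.00 ± 0.12 (adjusted p 0.997). Of the exon bases of Ccne2, 17.4% lie over Ints8 on the other strand and can take up its reads.

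Cyclins A and B and their kinase rose together at 3 days. Cdk1 (chr10:69335146-69352938, minus strand) is the kinase that drives entry into mitosis. It measured 0.0859, 0.120 and 0.232 FPKM in sham right, 0.195, 0.217 and 0.135 in contralateral left, 0.131, 0.0893 and 0.107 at 4 h and 0.0489, 0.275 and 0.334 at 1 day. At 3 days it measured 2.59, 2.21 and 3.96, and at 10 days 0.803, 0.507 and 0.560. Its 3-day libraries exceed every library of the other groups, and its 10-day libraries lie between sham right and 3 days without overlap. The difference at 3 days was 1.75 ± 0.15 (adjusted p 1.69e-06), a ratio of means of 20.0. At 10 days it was 0.50 ± 0.15 (adjusted p 0.0521).

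Ccna2, cyclin A2, measured 4.76, 3.83 and 7.79 FPKM at 3 days against 0.659, 0.616 and 0.609 in sham right (difference 1.94 ± 0.20, adjusted p 8.78e-06). Ccnb1, cyclin B1, measured 2.79, 2.25 and 4.71 against 0.204, 0.193 and 0.339 (difference 1.73 ± 0.18, adjusted p 6.90e-06). Ccnb2, cyclin B2, measured 5.09, 3.30 and 8.22 against 0.167, 0.491 and 0.308 (difference 2.24 ± 0.25, adjusted p 1.74e-05). All 3 genes had 3-day libraries that lie clear of sham right, and in each of them library 8 was highest and library 2 lowest.

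**Figure D2:**
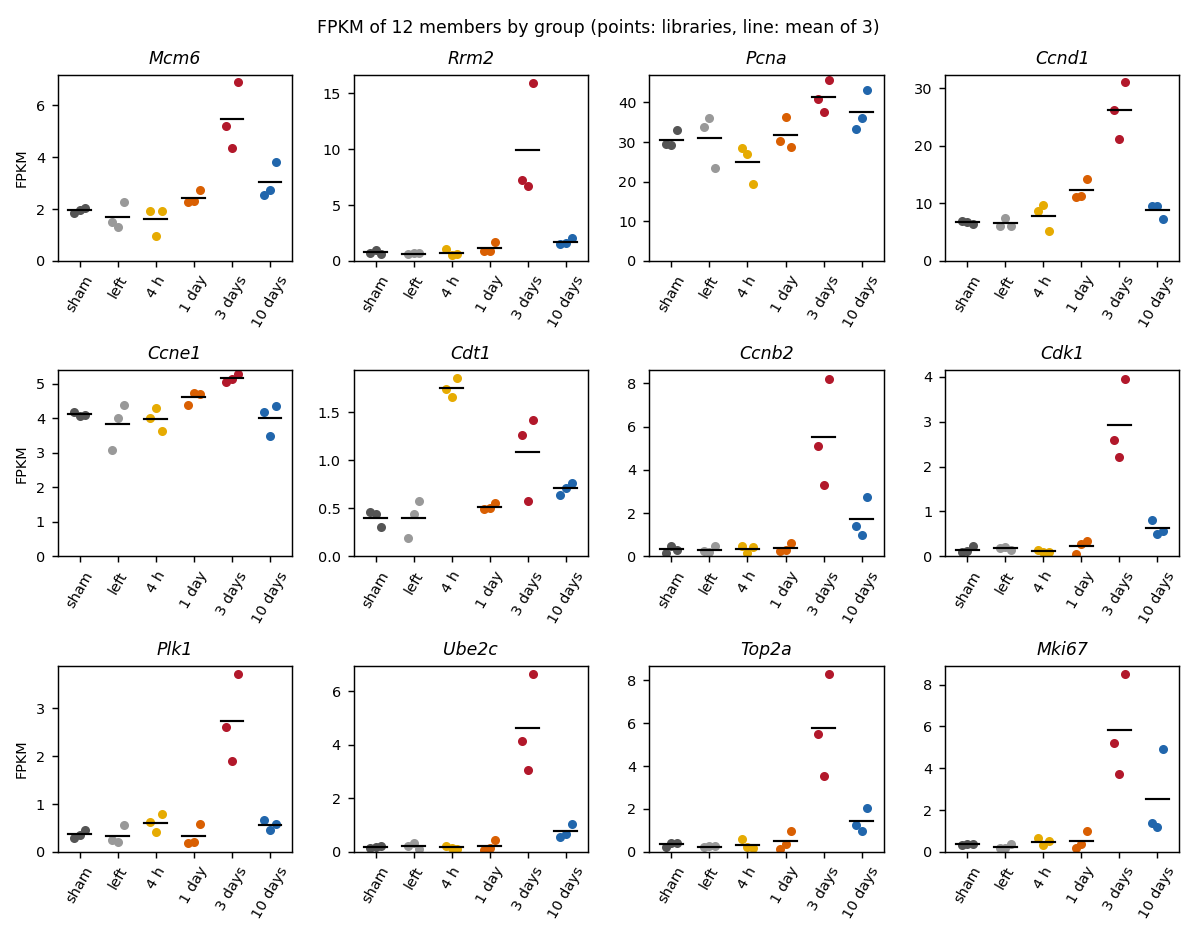
FPKM of 12 of the genes in every library by group (each point a library, each line the mean of 3; "left" is contralateral left, and every axis starts at 0). Points at 3 days stand apart for Rrm2, Cdk1, Ccnb2, Plk1, Ube2c, Top2a and Mki67; Cdt1 is highest at 4 h, the 1-day points of Ccnd1 lie above sham right, and Pcna and Ccne1 move little.

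The 2 transcription factors differed in level and in change. E2f1, which drives replication genes, was already at 3.82, 3.17 and 3.24 FPKM in sham right and measured 4.50, 5.79 and 4.88 at 3 days, where library 2 rather than library 8 was highest. Its difference of 0.46 ± 0.13 was called (adjusted p 0.0372). The E2f1 call ended without a filter on low values (adjusted p 0.0691), without sham right 2 or 3 (0.16 and 0.142), without 3-day library 2 or 8 (0.157 and 0.098), with quantile normalization (0.267) or median centring (0.22), with the block (0.133) and against contralateral left (0.183). Foxm1, which drives mitotic genes, measured 1.34, 0.691 and 2.34 FPKM at 3 days against 0.237, 0.134 and 0.157 in sham right. It was below the filter, and without a filter the difference was 1.01 ± 0.17 (adjusted p 0.00366).

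The kinases and checkpoint genes rose as a block at 3 days, with 5 of 5 called without a filter. Plk1, polo-like kinase 1, acts at mitotic entry and at the spindle poles. It measured 0.287, 0.363 and 0.461 FPKM in sham right, 0.621, 0.423 and 0.790 at 4 h, 0.190, 0.199 and 0.582 at 1 day, 2.61, 1.90 and 3.72 at 3 days and 0.660, 0.448 and 0.588 at 10 days. The 4-h and 1-day groups overlap sham right, and the 3-day group does not (difference 1.42 ± 0.17, adjusted p 3.74e-05). Bub1b, a spindle checkpoint kinase, measured 2.49 ± 0.815 against 0.388 ± 0.118 FPKM (difference 1.31 ± 0.19, adjusted p 0.000171). Aurkb, the kinase of the chromosomal passenger complex, had the largest ratio of means, 34.7, and was near the floor in sham right at 0.0188, 0.0602 and 0.0495 FPKM. It measured 1.32, 0.841 and 2.30 at 3 days and was listed at 0 in contralateral left 3, and without a filter its difference was 1.21 ± 0.16 (adjusted p 0.000389). Aurka, which builds spindle poles, and Bub1, a checkpoint kinase, differed by 1.11 and 1.35, both called.

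All 11 spindle and kinetochore genes were called higher at 3 days without a filter, with differences from 0.84 for Kif23 to 1.78 for Tpx2, which nucleates spindle microtubules. Kif11, the motor that pushes spindle poles apart, measured 3.1, 2.21 and 5.26 FPKM at 3 days against 0.539, 0.499 and 0.449 in sham right (difference 1.54 ± 0.23, adjusted p 0.000223). Birc5, survivin, a subunit of the passenger complex, measured 2.36, 1.48 and 3.27 against 0.169, 0.192 and 0.278 (difference 1.44 ± 0.17, adjusted p 3.67e-05). Prc1, which bundles the central spindle, measured 2.27, 1.16 and 2.47 against 0.234, 0.259 and 0.267 (difference 1.21 ± 0.17, adjusted p 0.000149). Of this block, Kif23, Kif2c and Cenpf were below the filter, since they passed 1 FPKM in at most 2 of the 3-day libraries. The kinetochore genes Cenpe and Cenpf, the bundling factor Nusap1, the motors Kif20a, Kif23 and Kif2c, and Cdca8 of the passenger complex each had 3-day libraries above all of sham right.

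The genes listed under mitotic exit rose as well. Ube2c (chr2:164769898-164778822, plus strand) encodes the ubiquitin carrier of the anaphase-promoting complex. It measured 0.153, 0.198 and 0.227 FPKM in sham right, 0.231, 0.322 and 0.109 in contralateral left, 0.236, 0.154 and 0.117 at 4 h and 0.0668, 0.131 and 0.438 at 1 day. At 3 days it measured 4.15, 3.04 and 6.63, and at 10 days 0.562, 0.676 and 1.06. The 10-day libraries lie above sham right and below every 3-day library. The 3-day difference was 2.18 ± 0.19 (adjusted p 1.96e-06), a ratio of means of 23.9. Cdc20, the activator of the complex, measured 4.26, 2.90 and 6.55 at 3 days against 0.225, 0.490 and 0.715 (difference 1.88 ± 0.20, adjusted p 8.63e-06). Cdca3, listed in this block although it promotes mitotic entry, differed by 1.60 ± 0.16 (adjusted p 6.26e-06).

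The proliferation markers moved with the mitotic genes. Mki67 (chr7:135689784-135716361, minus strand) encodes the Ki-67 antigen, which coats mitotic chromosomes and is used to stain cycling cells. It measured 0.335, 0.364 and 0.390 FPKM in sham right, 0.203, 0.174 and 0.371 in contralateral left, 0.648, 0.312 and 0.510 at 4 h and 0.195, 0.355 and 0.986 at 1 day. At 3 days it measured 5.21, 3.72 and 8.49, and at 10 days 1.4, 1.2 and 4.94. Each 3-day library is above sham right, while 10-day library 5 lies within the 3-day range and the other 10-day libraries lie below it. The difference at 3 days was 2.26 ± 0.31 (adjusted p 0.000129). Top2a, the topoisomerase that untangles sister chromatids, measured 5.52, 3.53 and 8.28 at 3 days against 0.247, 0.435 and 0.418 in sham right (difference 2.25 ± 0.24, adjusted p 1.09e-05).

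**Figure D3:**
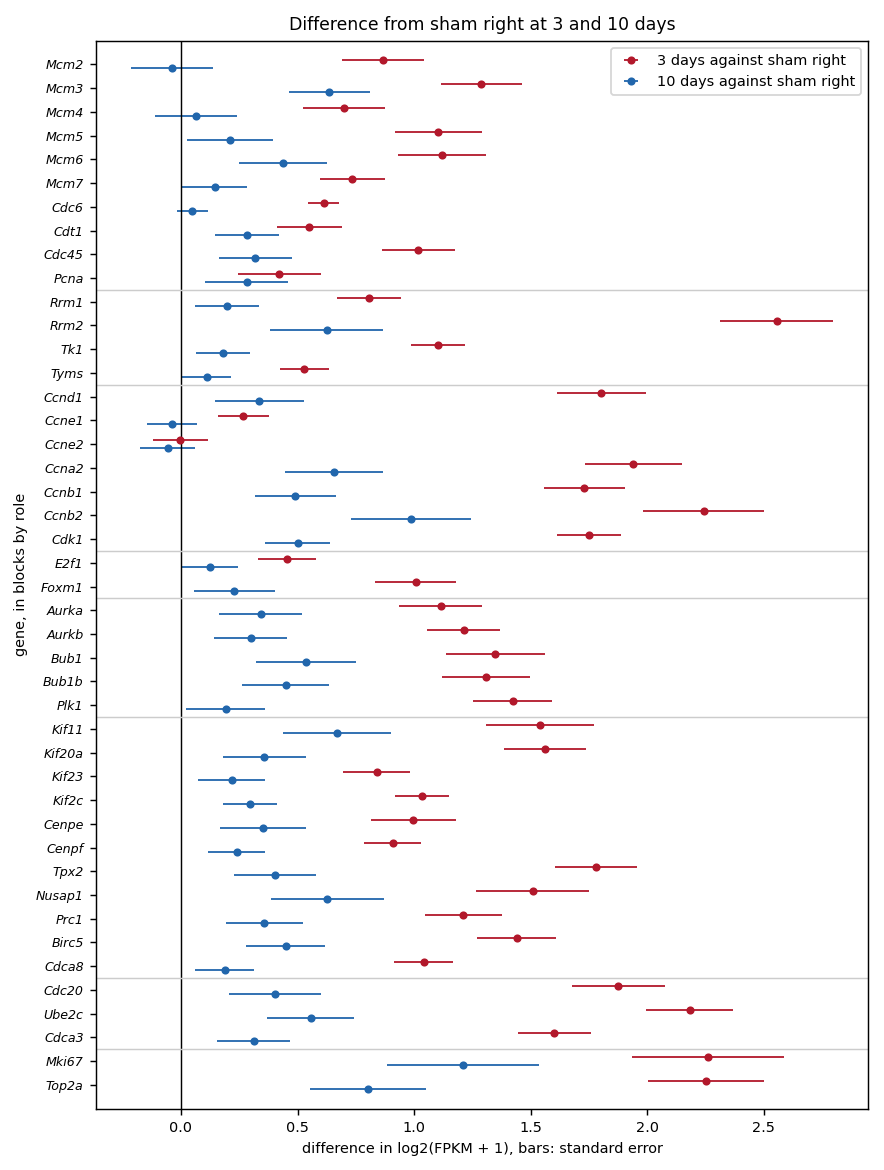
Difference from sham right in log2(FPKM + 1) at 3 days (red) and 10 days (blue) for the 44 genes, in blocks by role, with standard errors from the fit without a filter on low values. Red points of the mitotic blocks lie mostly above 1, those of the Mcm genes lie between 0.70 and 1.29, and Ccne2 is at 0; every blue point lies to the left of its red one.

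At 4 h and at 1 day the set as a whole was close to sham right. At 4 h, 1 of the 37 tested genes was called higher, Cdt1, where 1.32% of all genes were called higher, and 0 were called lower (0.863% of all). In 7 of 44 the 4-h libraries lay above all of sham right, against 18.8% of all genes tested, and in 5 below it, against 17.2%. At 1 day 0 of 37 were called with limma, where 0.899% of all genes were called higher and 0.278% lower, and 4 (Ccnd1, Mcm3, Mcm5 and Mcm2) were higher at an unadjusted p under 0.05. Such a p was reached by 1203 of all 14016 genes tested, in either direction. The 1-day libraries lay above all of sham right for 10 of 44, against 14.3% of all genes tested. Mcm3 measured 1.4, 1.41 and 1.94 FPKM at 1 day against 0.852, 0.649 and 0.679 (difference 0.58 ± 0.17, adjusted p 0.163). The median difference of the 44 genes was 0.04 at 4 h and 0.08 at 1 day. Library 4 was the highest of the 1-day libraries for 40 of 44 genes, a count for which no share over all genes was computed. Its Mki67, Top2a and Ube2c were 0.986, 0.969 and 0.438 FPKM, above all of sham right, while libraries 1 and 3 were not above all of it.

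From 1 day to 3 days the genes rose in a step. Without a filter 35 of 44 were called higher and 0 lower, where 2.09% of all genes were called higher and 0.1% lower. With the filter 29 of 37 were called, against 5.07% of all. The 3-day libraries lay above all 1-day libraries for 41 of 44, against 16.9% of all genes tested. Rrm2, Ccnb2, Ube2c, Top2a and Mki67 had the largest steps, from 2.15 for Mki67 to 2.27 for Rrm2. Helicase genes had smaller steps: Mcm6 rose by 0.90 ± 0.18 (adjusted p 0.00690), and Mcm2, Mcm4 and Mcm5, at 0.47, 0.45 and 0.62, did not pass. The Mcm6 step ended without 3-day library 8 (adjusted p 0.0559) and with the replicate block (0.0818). The step of Mcm7 (0.52 ± 0.14, adjusted p 0.0416) ended without 1-day library 1 or 3 or 3-day library 1 or 8 (adjusted p 0.123 to 0.262), with the block (0.263) and in 6 other settings (0.0505 to 0.161). Ccnd1 rose by 1.03 ± 0.19 in this step (adjusted p 0.00262).

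The 3-day libraries differed from each other in an order that most of the genes shared. Library 8 was above library 1, and library 1 above library 2, for 41 of 44 genes. The number of all genes at 1 FPKM or more had the same order, at 13632, 13273 and 12915 in libraries 8, 1 and 2. The share of all genes with this order of levels was not computed. The ratio of library 8 to library 2 had a median of 2.00, from 0.844 for E2f1 to 3.38. Without Pcna and Ccnd1, the summed FPKM of the other genes was 129 in library 1, 98.7 in library 2 and 187 in library 8, against 32.5 to 33.3 in sham right. At least 1 FPKM was reached by 35 to 43 genes in the 3-day libraries, by 9 or 10 in sham right and by 16 to 27 at 10 days. The choroid plexus sum had the opposite order, at 61.1, 221 and 0.860 FPKM in libraries 1, 2 and 8, and its part in the differences between the 3-day libraries was not tested. With any 1 library of either group left out, 31 to 33 of 37 genes were still called higher at 3 days.

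By 10 days most of the rise was gone. From 3 days to 10 days 24 of 44 genes were called lower and 0 higher without a filter, where 0.544% of all genes were called lower and 0.389% higher. With the filter 24 of 37 were called lower, against 1.19% of all. For 35 of 44 the 10-day libraries lay below all 3-day libraries, against 20.1% of all genes tested. The difference between 10 and 3 days was -1.93 ± 0.23 for Rrm2 (adjusted p 0.000298) and -1.63 ± 0.19 for Ube2c (adjusted p 0.000246). It was -1.25 ± 0.15 for Cdk1 (adjusted p 0.000266) and -1.47 ± 0.19 for Ccnd1 (adjusted p 0.000441), and all 4 genes fell. Mki67, with -1.05 ± 0.31 (adjusted p 0.115), and Mcm6, with -0.68 ± 0.18 (adjusted p 0.0765), did not pass. The number called lower was 15 without 3-day library 8 and 30 without 3-day library 2. Fitted on the 3-day and 10-day libraries alone it was 0, with 3 genes called of all 14016.

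Against sham right, 10 days left a remainder. At 10 days 0 of 44 genes were called without a filter, where 2.94% of all genes were called higher. With the filter 3 of 37 were called higher, Ccnb2, Mcm3 and Mki67, where 6.21% of all genes were called, and 16 had an unadjusted p under 0.05, all higher. Of all 14016 genes tested, 2713 had such a p in either direction. The 10-day libraries nevertheless lay above all of sham right for 33 of 44, against 13.8% of all genes tested. The median difference of the 44 was 0.33, and that of all genes tested was -0.07. Ccnb2 measured 1.4, 0.969 and 2.75 FPKM at 10 days (difference 0.99 ± 0.25, adjusted p 0.0200). Mcm3 measured 1.45, 1.35 and 2.35 (difference 0.64 ± 0.17, adjusted p 0.0290), and Mki67 differed by 1.21 ± 0.31 (adjusted p 0.0225). The 3 calls ended without 10-day library 5 (adjusted p 0.121 for Ccnb2, 0.158 for Mcm3 and 0.0993 for Mki67) and without sham right 1 or 3, so their number was 0 without any 1 of these libraries. It was 1 without sham right 2 and 5 without 10-day library 2.

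Library 5 was the highest of the 10-day libraries for 32 of 44 genes, although its estimated 1-fragment step of 0.0804 FPKM was the largest of all libraries. No share over all genes was computed for this count. The ratio of library 5 to the mean of libraries 1 and 2 had a median of 1.385 over the 44 genes. It was 3.8 for Mki67, 3.25 for Cenpe, 3.16 for Bub1 and 2.64 for Aurka, and 0.571 for Tk1, 0.607 for Mcm2 and 0.648 for Cdc20. Over 43 genes, all but Ccne2, the excess over sham right at 10 days was 19.5% of that at 3 days in the median, and 12.9% without library 5. By role the median was 11.5% over the 3 genes listed under mitotic exit (Cdca3 among them) and 15.0% over the 4 of nucleotide supply. Without library 5 it was 10.48% and 8.85%. Pcna, whose excess at 3 days was itself not called, had a share of 64.6%, and of 38.7% without library 5. The shares of Cdt1 were 44.2% and 40.1%, and those of E2f1 24.9% and 46.5%. The share of the excess is a ratio of 2 small differences for several genes and was given no test.

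**Figure D4:**
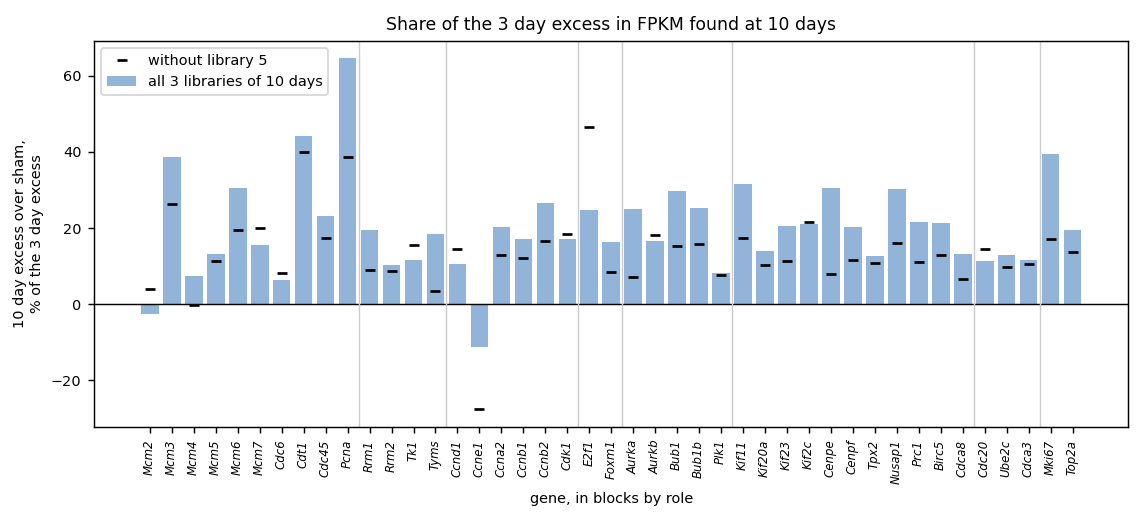
Excess over sham right at 10 days as a percentage of the excess at 3 days, for 43 genes in blocks by role (bars: all 3 libraries of 10 days; black marks: without library 5). Most bars lie between 10% and 32%, and the marks of Mki67, Cenpe, Bub1 and Kif11 lie well below their bars.

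No difference between the left-sided punches and sham right was called in these genes. With limma, 0 of 37 were called in either direction, 0 had an unadjusted p under 0.05, and 0.0214% of all genes were called higher and 0.00713% lower. An unadjusted p under 0.05 was found for 1077 of all 14016 genes tested. The left libraries lay above all of sham right for 3 of 44 genes, against 3.6% of all genes tested, and below it for 2, against 8.29%. Mki67 differed by -0.13, Cdk1 by 0.05 and Mcm6 by -0.15. Whether a left punch and a lesion punch came from the same mouse is not stated. Left and sham right libraries share the numbers 1 and 3. Whether these came from the same mouse is also not stated, and the groups were compared as unpaired.

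Other genes of the same pathways, listed apart from the 44, moved with them at 3 days where they act in mitosis. Of 52 further mitosis genes in the file, 45 were called higher without a filter, where 3.08% of all genes were, and of 33 tested with it 27 were called, where 6.91% of all were. Pbk, a mitotic kinase, differed by 2.72 ± 0.24 (adjusted p 2.11e-06). Ckap2 and Ckap2l, spindle proteins, differed by 2.13 and 2.00. Of 35 further replication genes 9 were called higher without a filter and 8 of 28 with it, against those same shares. Uhrf1, which copies DNA methylation at the fork, measured 2.65 ± 0.881 against 0.211 ± 0.0291 FPKM (difference 1.56 ± 0.17, adjusted p 1.28e-05). Gins2, of the fork helicase, and Lig1, the ligase, differed by 1.36 and 0.80. At 10 days, 2 of the 33 further mitosis genes were called higher, Cks1b by 0.96 and Anln by 0.56, a share near the 6.21% of all genes called higher.

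Few regulators of G1 and inhibitors of the cycle were called. Of 20 G1 regulators, 11 were tested. At 3 days Fbxo5, an inhibitor of the anaphase-promoting complex, was called higher by 0.72, and Mycn was called lower, with a difference of -0.58, where 6.91% of all genes were called higher and 0.457% lower. Of 20 tested inhibitors and related brakes, 2 were called higher at 3 days, a share near that of all genes, the Cdk4 and Cdk6 inhibitor Cdkn2c by 1.21 and the pocket protein Rbl1 by 0.76. At 4 h Cdkn1a, the p21 inhibitor, measured 34.7 ± 11.2 against 5.79 ± 0.957 FPKM (difference 2.36 ± 0.35, adjusted p 0.00213), and the cyclin F gene Ccnf differed by 0.97. At 4 h Mycn differed by -1.02 (called lower), and the antiproliferative gene Btg2 differed by -1.08 at 1 day.

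Markers of several cell types that can divide were also followed, in a comparison where 6.91% of all genes tested were called higher at 3 days. The summed microglia markers were 94.2 to 120.5 FPKM in sham right, 231.8 to 319.3 at 3 days and 407.1 to 494.4 at 10 days, with 5 of 8 called higher at 3 days. Those of monocytes and macrophages were 7.38 to 9.07, 52.9 to 120.2 and 89.6 to 194.8. Of 7 tested, 4 were called higher at 3 days and 6 at 10 days, where 6.21% of all genes tested were called higher. The microglia sum was higher in every 10-day library than in any 3-day library, and the macrophage sums of those groups overlap, whereas 35 of the 44 replication and mitosis genes were lower in every 10-day library. Astrocyte markers were 420.0 to 449.1 in sham right and 692.9 to 880.5 at 3 days (2 of 7 called, Gfap and Aldh1l1), but Gfap alone makes that rise: without it the other 6 sum to 377.3 to 397.9 in sham right and to 268.6 to 363.5 at 3 days. Oligodendrocyte precursor markers were 67.6 to 89.0 and 111.5 to 132.7 (1 of 6 called, Gpr17), and endothelial markers 41.9 to 49.3 and 57.0 to 66.8 (1 of 6 called, Pecam1). At 10 days these 2 sums were 43.6 to 83.9 and 22.5 to 42.4. Pericyte and fibroblast markers were 41.9 to 47.6, 49.3 to 97.6 and 111.6 to 247.0 (1 of 8 called at 3 days, Col3a1). At 10 days the matrix genes Col3a1, Col1a1, Col1a2, Lum and Dcn were called higher, where 6.21% of all genes tested were. The pericyte genes Rgs5, Kcnj8 and Pdgfrb were not called higher at 3 or 10 days. Rgs5 measured 31.95, 36.85 and 37.44 FPKM at 10 days against 27.81, 30.37 and 32.92 in sham right. Pdgfrb measured 4.267, 3.266 and 2.168 against 2.623, 3.337 and 2.944, and Kcnj8 1.407, 1.627 and 1.194 against 1.535, 0.9493 and 1.311. Lymphocyte markers were 0.926 to 1.27 in sham right, 1.39 to 1.95 at 3 days and 3.36 to 4.33 at 10 days. Without Cd79b the other 7 sum to 0.804 to 0.927 in sham right and 0.363 to 1.33 at 3 days, which overlap, and to 2.64 to 3.77 at 10 days. At 10 days 4 of 8 were called higher without a filter, where 2.94% of all genes were. Cd3e, Cd3d, Cd8a, Ms4a1, Cd79a and Nkg7 were listed at 0 in 4 to 8 libraries each. Within the 3-day group the microglia sum had the order of the 44 genes, library 8 above 1 above 2, and the macrophage sum had library 1 above 8 above 2. The part of each cell type in the rise of the replication and mitosis genes was not tested.

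**Figure D5:**
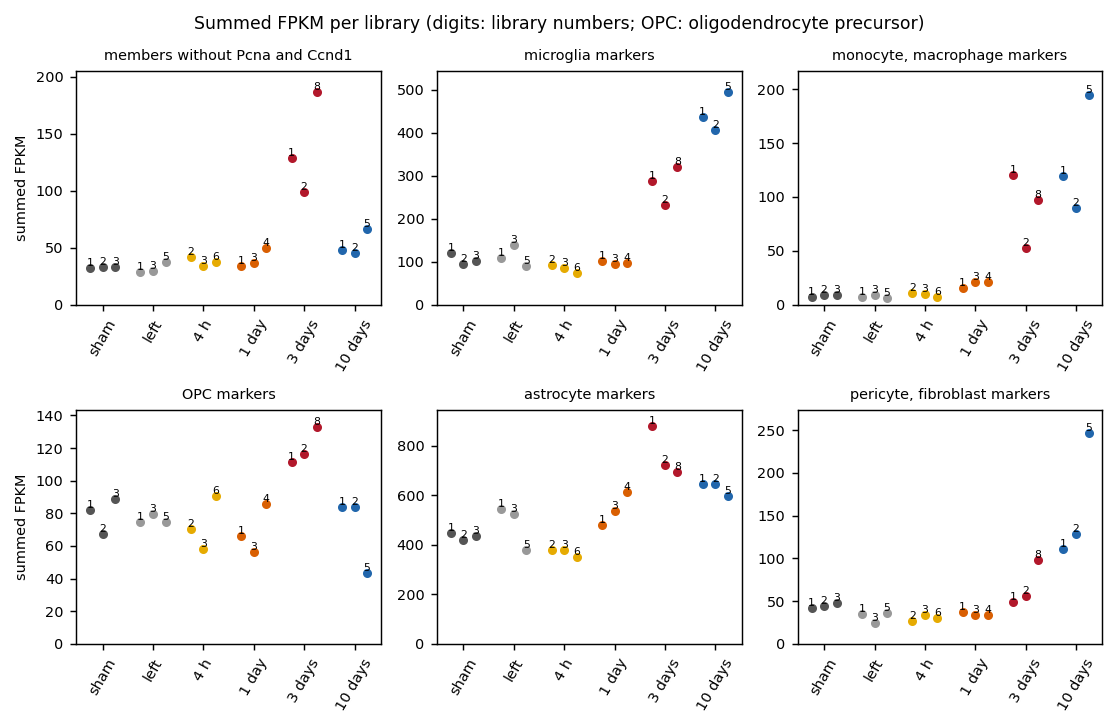
Summed FPKM per library and group (digits are library numbers; OPC is oligodendrocyte precursor) of 42 of the genes, without Pcna and Ccnd1, and of markers of 5 cell types; every axis starts at 0. The gene sum peaks at 3 days, and the microglia and macrophage sums stay high at 10 days. There library 5 has the highest microglia, macrophage, and joint pericyte and fibroblast sums and the lowest precursor sum. Of the pericyte genes in the joint sum, Pdgfrb and Kcnj8 are lowest in library 5 among the 10-day libraries, and Rgs5 is highest.

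Several members share exon bases with a gene on the other strand, and whether strand was used in counting is not given in the sources used here. The shared part was 29.3% of the exon bases for Kif20a (with Cdc23), 23.4% for Ccnd1 (with LTO1), 22.8% for Ube2c (with Tnnc2), 12.5% for Ccna2 (with Exosc9) and 11.1% for Prc1 (with Rccd1). The neighbour of Ube2c, Tnnc2, was at 0.0886, 0.295 and 0.119 FPKM at 3 days, where Ube2c was at 4.15, 3.04 and 6.63. Cdc23 measured 4.83, 4.35 and 5.16 FPKM at 3 days against 3.92, 4.38 and 3.88 in sham right, where Kif20a measured 2.82, 1.92 and 4.48 and 0.263, 0.413 and 0.328. Exosc9 measured 8.03, 8.55 and 7.18 at 3 days against 7.61, 7.99 and 8.57, where Ccna2 rose. Reads that belong to either gene of such a pair cannot be told apart here.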

How the data were processed

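Total RNA of punched mouse brain was sequenced in 18 libraries, 3 in each of 6 groups. The authors deposited a table of FPKM per gene and library. Reads were handled with StringTie 1.3.4d, HISAT2 2.1.0 and Trimmomatic 0.36 on build GRCm38, per the submitters' processing notes; settings, annotation, strand handling and scaling between libraries are not given in the sources used here. The table ends inside a line, which was dropped, leaving 34921 genes. The deposited p-value and q-value columns name no comparison and were not used. FPKM carries no counts, so no count test was run.

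Genes with at least 1 FPKM in 3 libraries (14016) were tested with limma 3.58.1 in R 4.3.3 (trended, robust variance; statmod 1.5.0) on log2(FPKM + 1), with 1 mean per group over all 18 libraries and Benjamini-Hochberg adjustment within each comparison. The procedure with the filter was tested on simulated data. Changes were put only into genes with a sham right mean above 1 on the log2(FPKM + 1) scale. Changes in lower genes and the fit without a filter were not simulated. The 44 genes and all lists and motifs were chosen with earlier results of these data known. Of the 44, a fixed panel of 29 could be given with full statistics, all others by name and value. Of other pathway genes, the 3 largest rises and falls among the called were named, or all of 5 or fewer calls. Positions are from GENCODE M21, and promoters from RefSeq (GRCm38.p6). Alternatives were other pseudocounts (0.1 and 0.01), filters (none, or 6 libraries) and scalings, fits on 2 groups only, other controls, the replicate number as a block, and each library left out. The fits without a filter that lead the text at 3 and 10 days were placed first after the data were seen, since the filter itself depends on the 3-day libraries.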

Additional observations from a re-analysis of the deposited data

Results flagged for a closer look

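The difference from sham right changed between neighbouring times for 3 sets of the replication and mitosis genes, each by limma's test of the step itself. From 4 h to 1 day it became lower for 1 of 37 genes, Cdt1. From 1 day to 3 days it became higher for 29 of 37 genes, where 5.07% of all genes were called higher, and from 3 days to 10 days it became lower for 24 of 37, where 1.19% of all were called lower. Since 20 of the 37 passed the filter only through the 3-day libraries, the last 2 counts hold genes that were selected by their high 3-day values. Among the 17 that passed without those libraries the counts were 10 and 7. The sham right libraries cancel in these steps, so each is the difference between the 2 stroke groups.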

How the results depend on the processing

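No called gene changed direction under any alternative run. At 4 h the count called higher was 0 with the filter at 6 libraries, which Cdt1 did not reach. At 1 day it was 1 when scaled without mitochondrial genes, on the 2 groups only, with contralateral left 5 and 10-day 5 left out or against contralateral left, and 2 against both controls pooled. At 3 days it was 13 of 16 tested with the filter at 6 libraries, 30 with the replicate block and 31 to 33 with 1 library left out. At 10 days, where 3 were called, it was 6 with a pseudocount of 0.1 (5 without a filter), 0 without a filter, 1 on the 2 groups only, 5 with the block, 0 with the 2 libraries left out, 5 against contralateral left, 11 against both controls and 0 to 5 with 1 library left out. From 4 h to 1 day 1 was called higher with a pseudocount of 0.1 or 0.01 or with the 2 libraries left out, and 0 lower with the filter at 6 libraries or the block. From 1 day to 3 days 10 were higher with the filter at 6 libraries, 25 with the block and 25 to 31 with 1 library left out. From 3 to 10 days, where 24 were lower, it was 15 with a pseudocount of 0.1, 7 with 0.01, 7 with the filter at 6 libraries, 0 on the 2 groups only, 31 with the 2 libraries left out and 15 to 30 with 1 left out. Fewer genes were tested at 6 libraries and fewer samples entered the fit on 2 groups; the cause was not tested for the other changes.

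Quantile normalization and median centring moved the median of all genes at 3 days from 0.08 to -0.05 in both, and that between 10 and 3 days from -0.15 to -0.01 and 0.00. Whether libraries with the same replicate number are paired is not stated and could not be decided from the values. Over 23 pairs with the same number, the correlation of deviations was -0.227 to 0.409, and 9 pairs were over 0.1. The largest were among number 3 of contralateral left, 4 h and 1 day (0.295, 0.393 and 0.409). Number 1 of contralateral left and sham right had 0.219. FPKM carries no counts, so the precision of low levels is not known.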
